A study of Mus musculus with 8 samples.

Results

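In the mouse hair bulb, 49 genes had transcript levels at most 0.5 times the control level, on the scale of FPKM + 1, in transit-amplifying cells (TACs) that had lost the BMP receptor Bmpr1a by either of 2 routes. These genes are not keratins by symbol, and none reached that limit in bulge stem cells, though some came near it. For 22 of them the control level in bulge stem cells, under 1 FPKM, was too low to reach it. All 49 were chosen by their measured values. A gene was taken when its mean log2(FPKM + 1) was lower by at least 1 in deleted than in control TACs of Shh-CreER mice and of K15-CrePGR mice, and when its difference in hair follicle stem cells (HFSCs) was above -1. FPKM counts sequenced fragments relative to transcript length and to the total mapped. The gene also needed a mean of at least 1 FPKM in both TAC tables, and symbols starting with Krt were left out. Of 20024 symbols found in all 3 tables, 10634 passed the expression filter, and 60 of these were lower in both TAC tables. The 11 that were also lower by at least 1 in HFSCs, as 2.75% of all genes were, were set aside, which left 49. Their differences in the 3 contrasts are therefore given as a description, with no p-value for any of the 49. Counts over lists below include the members that a list holds, and those members' K15-CrePGR values were used in choosing them.

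RNA was sequenced in 8 libraries of mice of mixed strain. TACs of Shh-CreER mice, in which the Shh gene drives an inducible Cre, were taken at postnatal day 68 from a Bmpr1a cKO (fl/fl) and a Bmpr1a Het, with 1 library each. TACs of K15-CrePGR mice, in which the keratin 15 promoter drives an inducible Cre in bulge stem cells, were taken at day 80 from hair bulbs KO 64 and KO 84 and from hair bulbs WT 52 and WT 57. HFSCs of K15-CrePGR mice were taken at day 68 from 1 Bmpr1a cKO and 1 Bmpr1a Het. The labels do not say whether samples 52, 57, 64 and 84 came from separate animals, nor how cells were isolated. Bulb TACs descend from the bulge stem cells in which K15-CrePGR acts, while Shh-CreER acts in the bulb itself.

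BMPs are secreted ligands that bind type I receptors such as Bmpr1a and act through the transcription factors Smad1 and Smad5 on target genes such as the Id and Msx families. In the growing follicle, matrix cells at the base of the bulb divide and then differentiate into the hair shaft and the inner root sheath, and BMP signalling is known to be needed for shaft differentiation. The shaft is built of hair keratins, which are crosslinked with other structural proteins as the cells cornify.

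Depth was not stated. The steps of values under 0.3 FPKM gave a relative depth of 1.003 for cKO against Het in Shh-CreER TACs, of 0.854 in HFSCs, and between 0.911 and 1.135 against WT 52 in K15-CrePGR TACs. Libraries had between 12021 and 13266 symbols at 1 FPKM or more. The labelled cell types were checked against marker lists. Sums run over all genes of a list that a table holds. The markers of bulge stem cells summed to 4857 and 10494 FPKM in cKO and Het HFSCs, and to between 140.3 and 682 FPKM in TAC libraries, with both KO samples above both WT samples in K15-CrePGR TACs. Markers of matrix TACs summed to between 573 and 1070 FPKM in TACs, against 157 and 66.0 FPKM in cKO and Het HFSCs. Whole-gene Bmpr1a (between 31.8 and 46.0 FPKM in all libraries) does not show an excised exon. Libraries also differed in sex-linked RNA: Xist was at 3.98 FPKM in cKO and 68.9 FPKM in Het HFSCs, and at 3.26 FPKM in WT 52 against at least 175 FPKM in the other K15-CrePGR samples. The Y-linked gene Ddx3y was at 23.2 FPKM in cKO and 0.255 FPKM in Het HFSCs. It was at 26.4 FPKM in WT 52, against at most 0.753 FPKM in the other K15-CrePGR samples. Both Shh-CreER libraries held both RNAs, with Xist at 102 and 68.2 FPKM and Ddx3y at 14.8 and 10.0 FPKM in cKO and Het.

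**Figure D1:**
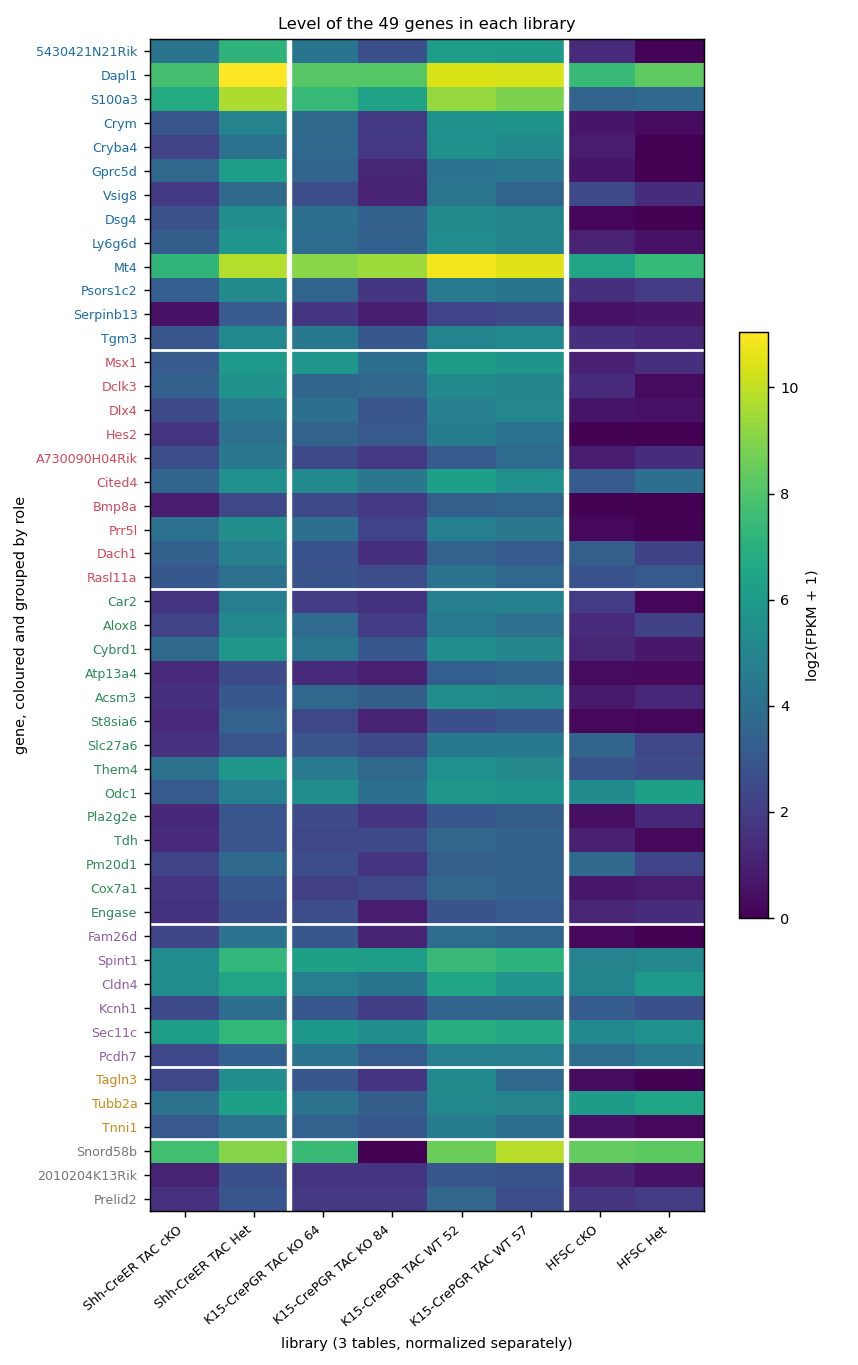
Level of each of the 49 genes, as log2(FPKM + 1) in colour, in the 8 libraries (columns), with genes in rows grouped by role. Deleted TAC libraries are darker (lower) than their controls, apart from KO 64 for Msx1, and 22 of the 49 genes lay below 1 FPKM in Het HFSCs; the 3 tables, parted by white lines, were normalized separately.

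The group with the highest summed FPKM was of genes assigned to shaft, inner root sheath and cornified cells. It held 13 of the 49 genes, with a median log2 difference of -2.50 for the Shh-CreER line and -1.90 for the K15-CrePGR line. Over all 10634 genes the medians were 0.0074 and -0.0093. Of all those genes 2.5% were lower by 1 or more in Shh-CreER TACs and 1.61% in K15-CrePGR TACs, and by the rule all 49 were. An increase of 1 or more was seen in 2.27% of all genes in Shh-CreER TACs. The sum of the 13 was 547 FPKM in the cKO and 4264.5 FPKM in the Het library of Shh-CreER TACs. Most of the Het sum came from Dapl1, Mt4 and S100a3, with 2104, 891 and 822 FPKM. Roles were assigned to the genes after their values were seen. In bulk RNA, fewer cells of a type and less RNA per cell cannot be told apart, here and in all that follows.

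Dapl1 was the most abundant of them in Shh-CreER TACs, with 217 FPKM in cKO and 2104 FPKM in Het. In K15-CrePGR TACs it had 291 FPKM in KO 64 and 276 FPKM in KO 84, against 1362 FPKM in WT 52 and 1339 FPKM in WT 57. Both KO samples stood far below both WT samples, and samples of a genotype lay close together. Mt4, a metallothionein of stratified epithelia, had 147 FPKM in cKO and 891 FPKM in Het Shh-CreER TACs. Its K15-CrePGR values were 542 FPKM in KO 64 and 685 FPKM in KO 84, against 1781 FPKM in WT 52 and 1432 FPKM in WT 57. The groups did not overlap, and Mt4 was among the 5 genes with the lower value in KO 64.

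S100a3, a calcium-binding protein rich in cysteine that is found in the hair cuticle, had 109 FPKM in cKO and 822 FPKM in Het Shh-CreER TACs. In K15-CrePGR TACs it had 166 and 81.7 FPKM in KO 64 and KO 84, against 623 and 459 FPKM in WT 52 and WT 57. Its level was 7.52-fold and 4.36-fold lower in deleted TACs of the 2 lines, and in HFSCs it was low in both genotypes, with 10.3 FPKM in cKO and 12.7 FPKM in Het. Dsg4, a desmosomal cadherin of the shaft whose loss causes brittle hair, had 5.67 FPKM in cKO and 41.2 FPKM in Het Shh-CreER TACs. It had 15.5 and 9.37 FPKM in KO 64 and KO 84, against 35.5 and 30.3 FPKM in WT 52 and WT 57. Tgm3, a transglutaminase that crosslinks trichohyalin and keratins, stood nearer to its controls in KO 64. It had 6.80 FPKM in cKO and 34.3 FPKM in Het Shh-CreER TACs, and 21 and 7.11 FPKM in KO 64 and KO 84, against 30.1 and 34.3 FPKM in WT 52 and WT 57.

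Crym, a thyroid hormone-binding crystallin, and Cryba4, a crystallin of the lens, had the widest gaps of the group in KO 84. Crym had 13.1 and 2.71 FPKM in KO 64 and KO 84, against 49.4 and 50.9 FPKM in WT 52 and WT 57, with 6.86 FPKM in cKO and 29.7 FPKM in Het Shh-CreER TACs. Cryba4 had 12.5 and 2.57 FPKM in the same KO samples, against 46.2 and 38.5 FPKM in the WT samples, with 3.77 FPKM in cKO and 17.1 FPKM in Het Shh-CreER TACs. For the orphan receptor Gprc5d, which is known from hard-keratinizing cells, the Shh-CreER difference was wider. It had 11.8 FPKM in cKO and 71.3 FPKM in Het there, and 10.6 and 1.28 FPKM in KO 64 and KO 84, against 17.4 and 19.2 FPKM in WT 52 and WT 57.

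The locus 5430421N21Rik lies on mm9 chromosome 15 from 101315561 to 101321943. RefSeq gives this name as a synonym of Krt86 and of Krt83, both hair shaft keratins, so a rule on symbols alone did not remove it. It had 17.9 FPKM in cKO and 142 FPKM in Het Shh-CreER TACs, and 18.6 and 5.48 FPKM in KO 64 and KO 84, against 69.8 and 65.3 FPKM in WT 52 and WT 57. Reads of near-identical hair keratins may be split among such entries, so its level is uncertain. The 4 other genes of the group were Vsig8, an immunoglobulin-domain membrane protein, Ly6g6d, a small surface protein of the Ly6 family, Psors1c2, and Serpinb13, a serpin of stratified epithelia. Their log2 differences were -1.96, -2.50, -2.0 and -2.62, in that order, for the Shh-CreER line, and -2.09, -1.51, -1.75 and -1.03 for the K15-CrePGR line. Serpinb13 passed on low values, with 0.456 FPKM in cKO and 7.97 FPKM in Het Shh-CreER TACs.

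A wider list of shaft and inner root sheath proteins other than keratins did not move as one. It had 29 genes past the filter, of which 8 were among the 49. Of the 29, 14 were lower by 1 or more in Shh-CreER TACs and 14 in K15-CrePGR TACs, but these were not all the same genes. An increase of 1 or more was seen for 1 in Shh-CreER TACs and for 4 in K15-CrePGR TACs. The limma test called none in K15-CrePGR TACs. At an unadjusted p under 0.05, 12 were lower, against 7.19% of all 12871 named loci tested, and 4 were higher, against 10.4% of all. The medians were -0.79 in Shh-CreER and -0.91 in K15-CrePGR TACs. A pair of further genes show the spread, and were singled out after their values were seen. Tchh, which encodes trichohyalin of the inner root sheath, had 313 FPKM in cKO and 196 FPKM in Het Shh-CreER TACs, and 89.2 and 12.7 FPKM in KO 64 and KO 84, against 127 and 181 FPKM in WT 52 and WT 57. Ly6g6c, of the same family as Ly6g6d, had 10.8 FPKM in cKO and 4.37 FPKM in Het Shh-CreER TACs, and 20.6 and 14.9 FPKM in KO 64 and KO 84, against 6.62 and 3.57 FPKM in WT 52 and WT 57.

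Since these genes were lower together, the sequences before their start sites are shown for a set that shares a feature. RefSeq windows (GRCm38.p6, 250 bases before to 50 after each gene's start) were found for 35 of the 49 genes, in 46 windows, of which A730090H04Rik and Fam26d were matched through the RefSeq symbols Dlx4os and Calhm4. The motif TATAAA, the TATA box, lay on the gene's strand between 35 and 19 bases before the start in 6 windows (13%), and in 1.78% of all 32851 windows. The genes were Dapl1, Mt4, Psors1c2, Tgm3, Tubb2a and Calhm4. This position was singled out after the windows were seen. Below are 4 of these windows, 5′ to 3′, in which capitals mark matches to any of the 5 motifs searched, so that TATAAA stands near the end of each. They are Dapl1 (chr2:59484403-59484702, plus strand), Mt4 (chr8:94136954-94137253, plus strand), Psors1c2 (chr17:35532951-35533250, plus strand) and Tgm3 (chr2:130012090-130012389, plus strand).
Dapl1: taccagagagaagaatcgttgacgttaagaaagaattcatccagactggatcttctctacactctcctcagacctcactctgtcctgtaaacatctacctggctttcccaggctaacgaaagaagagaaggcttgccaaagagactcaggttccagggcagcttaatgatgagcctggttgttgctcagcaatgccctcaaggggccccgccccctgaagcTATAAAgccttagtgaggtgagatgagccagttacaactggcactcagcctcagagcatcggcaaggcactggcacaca
Mt4: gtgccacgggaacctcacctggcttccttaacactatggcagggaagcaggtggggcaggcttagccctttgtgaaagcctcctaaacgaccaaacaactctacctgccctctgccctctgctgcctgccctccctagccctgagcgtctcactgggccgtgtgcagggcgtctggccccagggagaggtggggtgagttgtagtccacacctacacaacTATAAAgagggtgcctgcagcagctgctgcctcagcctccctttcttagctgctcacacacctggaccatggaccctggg
Psors1c2: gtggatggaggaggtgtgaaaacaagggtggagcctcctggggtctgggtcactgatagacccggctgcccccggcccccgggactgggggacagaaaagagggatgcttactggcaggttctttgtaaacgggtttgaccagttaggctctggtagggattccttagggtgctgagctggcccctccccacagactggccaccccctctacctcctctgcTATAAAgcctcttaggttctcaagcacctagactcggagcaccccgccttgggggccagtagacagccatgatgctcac
Tgm3: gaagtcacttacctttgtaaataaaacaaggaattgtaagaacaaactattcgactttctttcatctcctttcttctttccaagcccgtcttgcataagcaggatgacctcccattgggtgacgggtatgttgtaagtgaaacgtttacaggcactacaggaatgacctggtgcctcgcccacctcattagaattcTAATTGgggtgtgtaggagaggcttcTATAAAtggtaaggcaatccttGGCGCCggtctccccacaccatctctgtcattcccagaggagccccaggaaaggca
In the Tgm3 window the capitals also mark TAATTG, a core bound by Msx and Dlx proteins, and GGCGCC, a GC-rich motif bound by Smad1 and Smad5. Over both strands and the whole window, TATAAA was in 21.7% of the members' windows and 13.6% of all windows. For GGCGCC the shares were 13% and 11.9%, for CTTTGA (the core of Lef1 and Tcf sites) 19.6% and 16.0%, for CAATAAA (posterior Hox proteins) 4.35% and 4.60%, and for TAATTG 10.9% and 8.0%. Windows of one gene can overlap, and a match is only a run of letters.

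**Figure D2:**
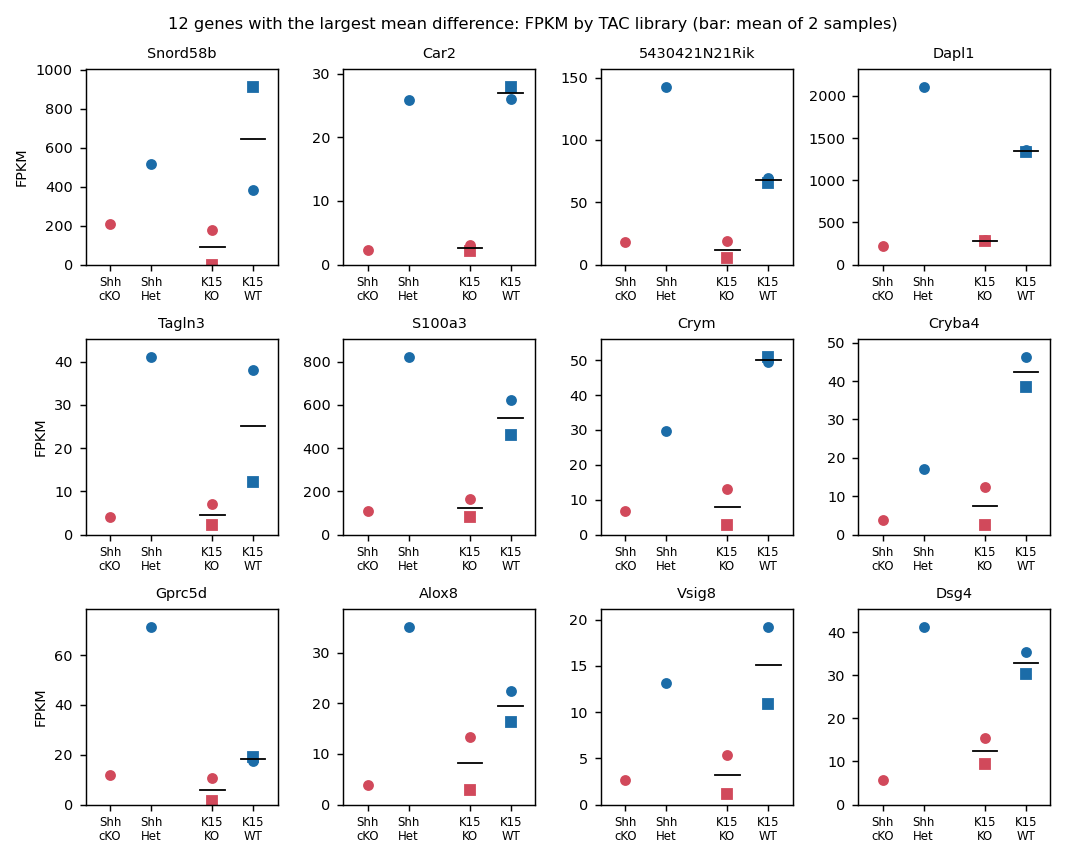
FPKM (y axis, from 0, own scale for each gene) in the 6 TAC libraries for the 12 genes with the largest mean of both differences whose mean reached 5 FPKM in both tables. Red marks deleted and blue control libraries, circles stand for KO 64 and WT 52 (and the lone Shh-CreER libraries), squares for KO 84 and WT 57, and bars for the mean of 2 samples; in every panel the deleted libraries lie below the controls of their table.

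The group of regulators held 10 genes, of which Msx1 and Dlx4 are homeobox transcription factors. Msx1, a target of BMP signalling, had 8.05 FPKM in cKO and 59.5 FPKM in Het Shh-CreER TACs. In K15-CrePGR TACs it had 54.2 and 14.7 FPKM in KO 64 and KO 84, against 64.9 and 51.8 FPKM in WT 52 and WT 57. KO 64 lay within the range of the WT samples, which made Msx1 the only one of the 49 genes whose K15-CrePGR groups overlapped. Among all 10634 genes 26.6% had both KO samples below both WT samples. For the 49 genes this separation largely follows from the rule, which used the same K15-CrePGR values, so it is no separate check. The K15-CrePGR difference of Msx1 was -1.0, just inside the limit, and it rests on KO 84.

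Dlx4 had 4.79 FPKM in cKO and 23.0 FPKM in Het Shh-CreER TACs, and 15.3 and 6.84 FPKM in KO 64 and KO 84, against 27.1 and 33.8 FPKM in WT 52 and WT 57. Its antisense transcript A730090H04Rik (Dlx4os in RefSeq) was also a member, with log2 differences of -1.77 and -1.39 in the 2 lines, and both were assigned to the same mm9 interval (chromosome 11, 95001769 to 95020361). The sources used here do not say that counting used strand, so reads of this pair cannot be told apart. In all, 14 of the 49 genes shared their listed interval with another symbol.

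Hes2, a repressor of the basic helix-loop-helix class, had 2.30 FPKM in cKO and 16.7 FPKM in Het Shh-CreER TACs, and 10.6 and 7.48 FPKM in KO 64 and KO 84, against 23.6 and 16.4 FPKM in WT 52 and WT 57. It was nearly unlisted in HFSCs, at 0.0417 FPKM in cKO and 0 in Het. Cited4, a co-activator that binds CBP and p300, was among the more abundant regulators, with 11.1 FPKM in cKO and 45.3 FPKM in Het Shh-CreER TACs and 36.8 and 19.6 FPKM in KO 64 and KO 84, against 74.3 and 46.2 FPKM in WT 52 and WT 57. The kinase gene Dclk3 fell evenly in both KO samples, to 11.2 and 12.3 FPKM, against 37.5 and 31.5 FPKM in WT 52 and WT 57. It had 9.30 FPKM in cKO and 47.7 FPKM in Het Shh-CreER TACs. Dach1, a transcriptional co-repressor, Prr5l, a partner of an mTOR complex, and the small GTPase gene Rasl11a had log2 differences of -1.39, -1.31 and -1.04 for the Shh-CreER line, and -1.16, -1.46 and -1.23 for the K15-CrePGR line.

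Bmp8a was the only BMP ligand among the 49 genes. It was low throughout, with 0.850 FPKM in cKO and 4.18 FPKM in Het Shh-CreER TACs and 4.45 and 2.55 FPKM in KO 64 and KO 84, against 9.08 and 10.8 FPKM in WT 52 and WT 57. Of the 15 measured ligands, receptors, Smads and antagonists of the BMP pathway, 1 passed the limma test in K15-CrePGR TACs. This was Bmp2, which rose to 25.8 ± 3.59 FPKM in KO samples, against 2.91 ± 0.096 FPKM in WT samples (mean ± SD, n = 2 each, log2 difference 2.77, limma adjusted p = 0.0472). The list's median difference in that table was 0.23. In Shh-CreER TACs Bmp2 had 65.9 FPKM in cKO and 42.3 FPKM in Het.

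Of 11 measured BMP target genes, which include Msx1, none passed the limma test in K15-CrePGR TACs, and 5 were lower and 1 higher at an unadjusted p under 0.05 (7.19% and 10.4% of all loci tested). The median log2 difference was -0.83, and -1.17 in Shh-CreER TACs. Their levels in KO samples and then WT samples were 148 ± 50.9 and 444 ± 182 FPKM for Id3 (log2 difference -1.56, limma adjusted p = 0.197) and 82.8 ± 5.56 and 214.7 ± 94.3 FPKM for Id2 (-1.29, limma adjusted p = 0.199; SD, n = 2 each). Id1 had 128 ± 11.5 and 233 ± 78.6 FPKM (-0.83, limma adjusted p = 0.261). Id4 was higher, at 22.3 ± 6.48 and 11.1 ± 3.22 FPKM (0.94, limma adjusted p = 0.242). In Shh-CreER TACs Id1 had 49.2 FPKM in cKO and 358 FPKM in Het, and Id4 had 9.25 and 8.28 FPKM. Id1 and Id4 were singled out after their values were seen. Id2, Id3 and Msx2 were among the 11 genes left out because they were also lower in HFSCs. Across 12871 named loci the same fit called 6 lower (0.0466%) and 9 higher (0.0699%), and 8 of these 15 were listed at 0 in both samples of 1 genotype. In the lists of shaft keratins (12), inner root sheath keratins (6), Notch (15) and Wnt (17) genes none passed, while 9, 5, 3 and 2 were lower and 0, 0, 2 and 5 higher at an unadjusted p under 0.05, against the same 7.19% lower and 10.4% higher of all loci. In Shh-CreER TACs the shaft keratins had a median difference of -2.60, with 11 of 12 lower by 1 or more. The inner root sheath keratins there had a median of -0.22, with 1 of 6 lower by 1 or more and sums of 1932 FPKM in cKO and 1779 FPKM in Het. In K15-CrePGR TACs their median was -1.57.

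The hair transcription factors on the list did not all share the pattern. Of 26 measured in K15-CrePGR TACs none passed the limma test, with 10 lower and 4 higher at an unadjusted p under 0.05 (7.19% and 10.4% of all loci). Hoxc13, which regulates hair keratin genes, had 14.9 FPKM in cKO and 152 FPKM in Het Shh-CreER TACs, but its K15-CrePGR difference was -0.78. There it had 89.9 and 45.0 FPKM in KO 64 and KO 84, against 144 and 83.6 FPKM in WT 52 and WT 57, so the groups overlapped. Hoxc13 was singled out after its values were seen. The widest K15-CrePGR differences on the list were upward. Foxi3, a forkhead factor of hair and tooth development, had 7.93 and 24.8 FPKM in KO 64 and KO 84, against 0.159 and 0.277 FPKM in WT 52 and WT 57 (log2 difference 3.64, limma adjusted p = 0.102). Ovol2, a zinc finger repressor of epithelia, had 13.8 and 21.5 FPKM in the KO samples, against 1.86 and 1.74 FPKM in the WT samples (log2 difference 2.70, limma adjusted p = 0.0772).

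Genes of metabolism made up 14 of the 49, of which 6 had a mean of at least 5 FPKM in both TAC tables. Car2, carbonic anhydrase 2, had 2.28 FPKM in cKO and 25.9 FPKM in Het Shh-CreER TACs, and 3.03 and 2.06 FPKM in KO 64 and KO 84, against 26.1 and 27.9 FPKM in WT 52 and WT 57. It was 11.4-fold lower in the cKO library and 10.6-fold lower in the KO samples. The gene lies on mm9 chromosome 3 from 14886425 to 14900769.

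Alox8, a lipoxygenase acting on arachidonic acid, had 3.84 FPKM in cKO and 35.1 FPKM in Het Shh-CreER TACs. In K15-CrePGR TACs its samples were farther apart, with 13.4 and 2.97 FPKM in KO 64 and KO 84, against 22.4 and 16.4 FPKM in WT 52 and WT 57. Cybrd1, a ferric reductase, had 13 FPKM in cKO and 56.2 FPKM in Het Shh-CreER TACs, and 19.2 and 6.99 FPKM in KO 64 and KO 84, against 44.6 and 32.0 FPKM in WT 52 and WT 57. The polyamine enzyme Odc1 had 7.68 FPKM in cKO and 26.2 FPKM in Het Shh-CreER TACs. Its K15-CrePGR values were 42.2 and 15.4 FPKM in KO 64 and KO 84, against 56.9 and 51.9 FPKM in WT 52 and WT 57, so that most of the difference was in KO 84.

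Acsm3, an acyl-CoA synthetase, had 1.83 FPKM in cKO and 7.31 FPKM in Het Shh-CreER TACs, and 11.9 and 8.54 FPKM in KO 64 and KO 84, against 42.8 and 35.9 FPKM in WT 52 and WT 57. The fatty acid transporter Slc27a6 had 6.48 and 4.39 FPKM in KO 64 and KO 84, against 21.3 and 21.4 FPKM in WT 52 and WT 57, and Them4, an acyl-CoA thioesterase, had 21.9 and 12.4 FPKM in KO samples, against 45.9 and 35.9 FPKM in WT samples. In Acsm3, Slc27a6 and Them4 both KO samples were below both WT samples. The secreted phospholipase Pla2g2e had a K15-CrePGR difference of -1.01, near the limit. The other members of the group were Pm20d1 (an N-acyl amino acid synthase), Tdh (threonine dehydrogenase), Cox7a1 (a subunit of cytochrome c oxidase), St8sia6 (a sialyltransferase), Engase (an endoglycosidase) and Atp13a4 (a cation-transporting ATPase). Their log2 differences ranged between -2.15 and -1.11 in Shh-CreER TACs.

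The cell surface and secretion group held 6 genes. Spint1, an inhibitor of the protease matriptase, had 39.6 FPKM in cKO and 159.6 FPKM in Het Shh-CreER TACs, and 77.1 and 72.5 FPKM in KO 64 and KO 84, against 175 and 139 FPKM in WT 52 and WT 57. Sec11c, a subunit of signal peptidase, had 71.8 FPKM in cKO and 160.0 FPKM in Het Shh-CreER TACs, and 57.5 and 42.1 FPKM in KO 64 and KO 84, against 121 and 101 FPKM in WT 52 and WT 57. For both genes the samples of a genotype lay closer together than the genotypes did. The tight junction gene Cldn4 had 39.2 FPKM in cKO and 86.5 FPKM in Het Shh-CreER TACs, and 25.2 and 18.3 FPKM in KO 64 and KO 84, against 89.6 and 53.7 FPKM in WT 52 and WT 57. The protocadherin Pcdh7, the potassium channel Kcnh1 and the channel family gene Fam26d had log2 differences of -1.07, -1.50 and -1.87 for the Shh-CreER line, and -1.06, -1.08 and -1.69 for the K15-CrePGR line.

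Of 3 cytoskeletal genes, Tubb2a encodes a beta-tubulin, Tagln3 an actin-binding protein known from neurons and Tnni1 the troponin I of slow muscle fibres. Tagln3 had 4.1 FPKM in cKO and 41.1 FPKM in Het Shh-CreER TACs, and 7.09 and 2.19 FPKM in KO 64 and KO 84, against 38.1 and 12.1 FPKM in WT 52 and WT 57. The WT samples were far apart. Tubb2a had 16.8 FPKM in cKO and 73.1 FPKM in Het Shh-CreER TACs, and 17.0 and 8.56 FPKM in KO 64 and KO 84, against 34.6 and 29.6 FPKM in WT 52 and WT 57. Tnni1 had 7.41 FPKM in cKO and 16.6 FPKM in Het Shh-CreER TACs, and 10.1 and 7.12 FPKM in KO 64 and KO 84, against 23.6 and 15.2 FPKM in WT 52 and WT 57. The listed skeletal muscle markers, which do not include Tnni1, summed to 47.2 FPKM in cKO and 214 FPKM in Het Shh-CreER TACs, and 8 of the 9 past the expression filter were lower by 1 or more. They summed to 52.7 and 43.4 FPKM in KO 64 and KO 84, against 61.3 and 40.7 FPKM in WT 52 and WT 57, where the ranges overlapped. Their part in the values of Tnni1 was not tested.

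The remaining 3 were 2010204K13Rik on the X chromosome, Prelid2 and the small nucleolar RNA Snord58b. Snord58b had 207 FPKM in cKO and 518 FPKM in Het Shh-CreER TACs, and 178 FPKM in KO 64 and a listed 0 in KO 84, against 382 and 911 FPKM in WT 52 and WT 57. A listed 0 can be a failed estimate, and Snord58b shares its interval with the ribosomal protein gene Rpl17. Without it the K15-CrePGR differences of the other 48 genes ranged between -2.99 and -1.0.

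**Figure D3:**
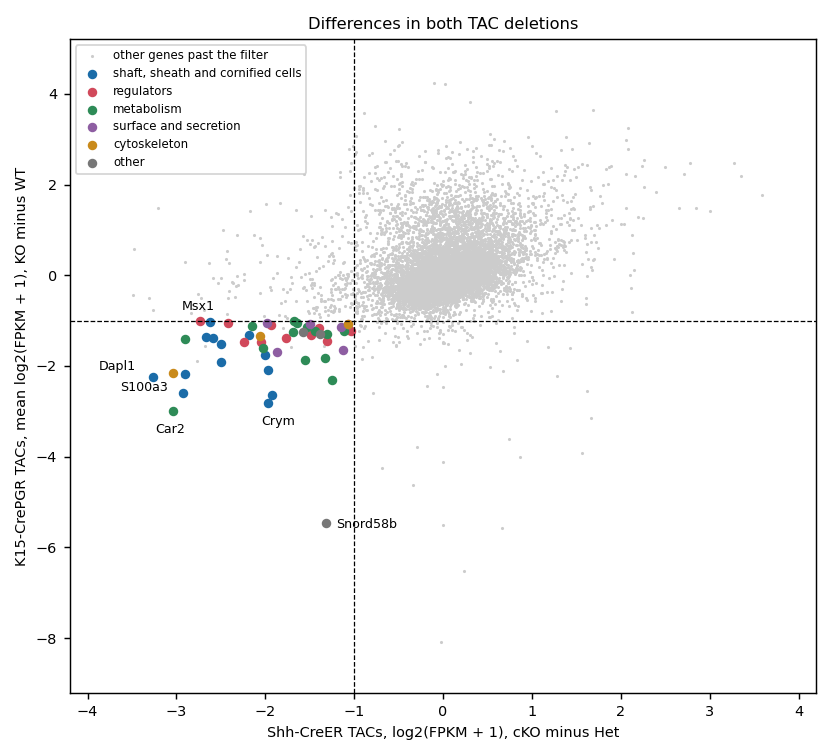
Difference in log2(FPKM + 1), deleted minus control, in Shh-CreER TACs (x axis) and K15-CrePGR TACs (y axis) for the 10634 genes past the expression filter. Grey points are other genes, coloured points the 49 chosen genes by role, and dashed lines the limits of -1 that chose them; grey points within the lower left corner are the 11 genes also lower in HFSCs.

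The choice of members used both TAC contrasts, but the genes lower in Shh-CreER TACs can be followed into K15-CrePGR TACs, whose differences had no part in choosing them. The K15-CrePGR samples entered only through the expression filter, which needs a mean of 1 FPKM in both tables. Among 10342 genes past the filter with an HFSC difference above -1, 233 (2.25%) were lower by 1 or more in Shh-CreER TACs. Of these, 49 (21%) were lower by 1 or more in K15-CrePGR TACs, where 1.4% of all 10342 genes were. In K15-CrePGR TACs both KO samples were below both WT samples for 106 of the 233 (45.5%), and for 26.6% of all 10342 genes. The median K15-CrePGR difference of the 233 was -0.30, and -0.011 over all. An increase of 1 or more was seen in 9.87% of the 233 and 9.38% of all. The limma test called 1 of the 233 lower and 0.029% of all, while 61 of the 233 (26.2%) and 6.64% of all were lower at an unadjusted p under 0.05. Seen from the other table, the 49 were 33.8% of the 145 genes lower by 1 or more in K15-CrePGR TACs.

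The limits leave near neighbours on both sides. Just inside were Rasl11a, Tnni1 and Pcdh7 in Shh-CreER TACs (-1.04, -1.07 and -1.07), Msx1, Pla2g2e and Serpinb13 in K15-CrePGR TACs (-1.0, -1.01 and -1.03), and Odc1, Mt4 and Cldn4 in HFSCs (-0.96, -0.95 and -0.94). Just outside were Spink12, Rnf157 and Spink6 in Shh-CreER TACs (-0.99, -0.95 and -0.93), Kctd6, Bag2 and Mylk3 in K15-CrePGR TACs (-0.94, -0.92 and -0.90), and Msx2, Alox12 and Ovol1 in HFSCs (-1.05, -1.10 and -1.11).

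The fall was larger in Shh-CreER than in K15-CrePGR TACs for 36 of the 49 genes, a difference between tables that was not tested. In Shh-CreER TACs 19 genes were lower by 2 or more on the log2 scale (0.564% of all genes) and in K15-CrePGR TACs 10 were (0.301% of all genes). The rule had already set the 49 at -1 or less in both. Among all genes lower by 1 or more, 60 of 266 in Shh-CreER and 32 of 171 in K15-CrePGR TACs were lower by 2 or more. The 5 genes lower by that much in both were Car2, 5430421N21Rik, Dapl1, Tagln3 and S100a3.

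The 2 KO samples differed in depth of the fall. KO 84 had the lower value for 44 of the 49 genes, and for 46.3% of all 10634 genes. The median log2 difference from the WT mean was -1.79 in KO 84 and -1.0 in KO 64, and each gene was below the WT mean in both. A difference of -1 or less was reached by all 49 genes in KO 84 (2.37% of all genes) and by 24 in KO 64 (1.47% of all genes). The rule sets the mean of both KO samples at -1 or less, so the lower sample of each gene had to reach it. As KO 84 was mostly the lower sample, its count largely follows from the rule. Without KO 84, 29 genes met the rule, of which 24 were among the 49. Shaft keratins went the same way, with sums of 858 FPKM in KO 64 and 671 FPKM in KO 84, against 2940 FPKM in WT 52 and 2444 FPKM in WT 57.

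**Figure D4:**
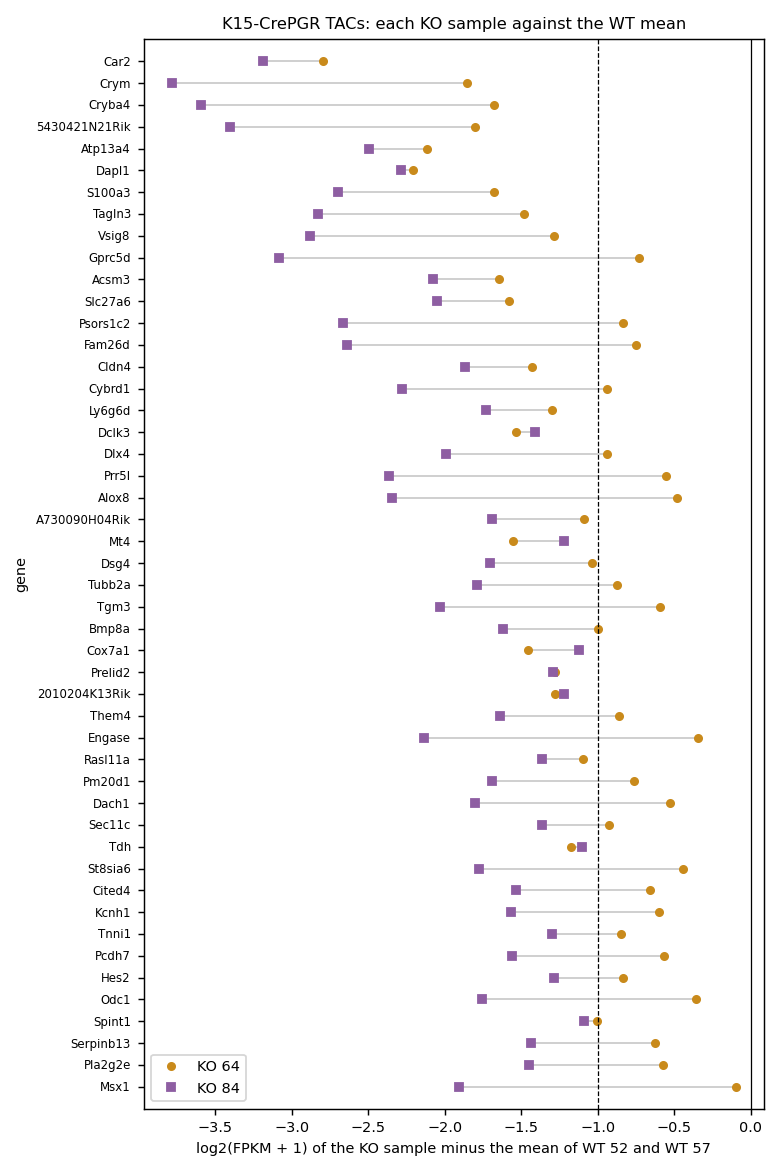
Log2(FPKM + 1) of KO 64 (circles) and KO 84 (squares) minus the mean of WT 52 and WT 57 for 48 of the 49 genes (rows; Snord58b, listed at 0 in KO 84, is left out). KO 84 lies to the left for 43 of the 48, and the dashed line marks -1.

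Markers of other cells also differed between these samples. All 9 immune markers past the filter were above both WT samples in both KO samples, as 26.8% of all 12871 loci were, and the whole list summed to 953 FPKM in KO 64 and 155 FPKM in KO 84, against 86.8 FPKM in WT 52 and 28.4 FPKM in WT 57. The fibroblast markers summed to 1508 and 467 FPKM in KO 64 and KO 84, against 405 and 429.6 FPKM in WT 52 and WT 57. Of these sums Dcn alone gave 551 and 291 FPKM in the KO samples and 284 and 382 FPKM in the WT samples. The endothelial markers summed to 38.8 and 4.59 FPKM in KO 64 and KO 84, against 4.63 and 1.66 FPKM in WT 52 and WT 57. KO 64 was thus highest in these 3 lists. Bulge stem cell markers summed to 611 FPKM in KO 64 and 682 FPKM in KO 84, against 140.3 FPKM in WT 52 and 192 FPKM in WT 57, and all 9 past the filter had both KO samples above both WT samples. Smooth muscle markers summed to 129.99 and 76.2 FPKM in KO 64 and KO 84, against 22.0 and 20.6 FPKM in WT 52 and WT 57. Outer root sheath markers summed to 2693 and 4308 FPKM in KO 64 and KO 84, against 1479 and 1388 FPKM in WT 52 and WT 57, and isthmus markers to 274 and 842 FPKM in the KO samples, against 35.7 and 28.4 FPKM in the WT samples. Most of the isthmus sums came from Krt79, with 189 and 768 FPKM in the KO samples and 19.1 and 14.7 FPKM in the WT samples. Matrix TAC markers had a median difference of -0.04 and sums of 646 and 575 FPKM in KO 64 and KO 84, against 672 and 573 FPKM in WT 52 and WT 57. They did not move as one. Of the 11 past the filter, 4 were higher by 1 or more, with Edar the widest (2.34), and 1, Msx2, was lower by 1 or more (-1.15). The shares were 9.38% higher and 1.4% lower among the 10342 genes with an HFSC difference above -1. In Shh-CreER TACs immune markers summed to 432 FPKM in cKO and 638 FPKM in Het, and fibroblast markers to 955 and 813 FPKM. Isthmus markers there summed to 715 and 82.7 FPKM, of which Krt79 alone gave 638 and 68.1 FPKM. The part of all these cell types in the lower values of the 49 genes was not tested.

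In HFSCs many of the 49 genes were scarce. Among the 60 genes lower in both TAC deletions, before the HFSC values were used, 22 (36.7%) were below 1 FPKM in the Het HFSC library, and 7.62% of all 10634 genes were. All 22 are among the 49, because a gene below 1 FPKM in Het cannot be lower by more than 1 on the log2(FPKM + 1) scale. The HFSC condition therefore says nothing about those genes. The remaining 27 include genes with substantial bulge levels. Tubb2a had 68.5 FPKM in cKO and 92.1 FPKM in Het HFSCs, Odc1 had 37.7 and 74.6 FPKM, and Dapl1 had 173 and 314 FPKM. These were lower in cKO HFSCs by less than the limit.

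In HFSCs, 7 of the 49 genes were higher in cKO by 1 or more (5.46% of all genes). Car2 had 2.93 FPKM in cKO and 0.151 FPKM in Het, Pm20d1 had 12.8 and 3.64 FPKM, Slc27a6 had 11.3 and 4.13 FPKM, and Dach1 had 9.12 and 3.34 FPKM. Vsig8 (4.40 FPKM in cKO and 1.67 FPKM in Het), 5430421N21Rik (1.57 and 0.0791 FPKM) and Dclk3 (1.58 and 0.241 FPKM) were higher at low levels. In these genes the cKO HFSC library stood above its control while every deleted TAC library stood below its controls. Listed shaft keratins also summed higher in cKO than in Het HFSCs, with 27.4 and 8.61 FPKM. So did inner root sheath keratins (31.8 and 9.78 FPKM) and matrix TAC markers (157 and 66.0 FPKM). The wider list of shaft and inner root sheath proteins summed lower, with 5565 and 7870 FPKM. The part of such cells in the 7 rises was not tested. With 1 HFSC library per genotype, which also differed in sex-linked RNA, these differences have no replicate check.

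**Figure D5:**
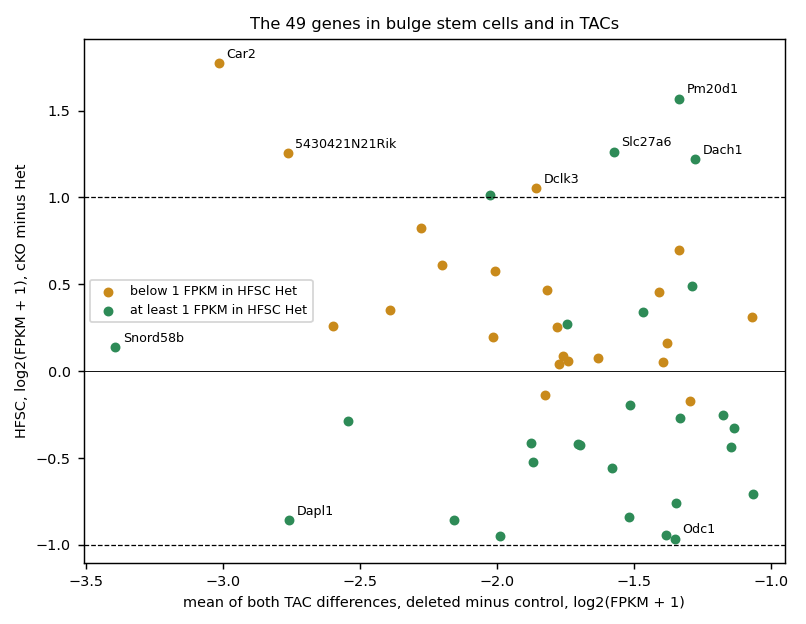
HFSC difference, cKO minus Het (y axis), against the mean of both TAC differences, deleted minus control (x axis), all in log2(FPKM + 1), for the 49 genes. Orange points are genes below 1 FPKM in Het HFSCs (22) and green points the others (27); 7 points lie at or above 1, and dashed lines mark 1 and the limit of -1.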

How the data were processed

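Expression was measured by RNA sequencing of total RNA in 8 libraries. The submitters' processing notes name TopHat, Cufflinks and the build mm9, with no versions. The values the authors deposited are read as FPKM, from the use of Cufflinks and from the values, with 1 column per library in 3 separately normalized tables. Of 45930 K15-CrePGR loci, 8904 without a name were left out. Symbols with a comma were left out, and of repeated symbols the row of highest mean stayed. Columns were matched to samples by title, and no difference was taken across tables.

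Differences are means of log2(FPKM + 1), deleted minus control, a scale that understates the change of low genes. In the K15-CrePGR table, 12871 symbols whose mean reached 1 FPKM were tested with limma 3.58.1 in R 4.3.3 (moderated two-sided test, variance trend on level, Benjamini-Hochberg, threshold 0.05), KO 64 and KO 84 against WT 52 and WT 57. The procedure was tested on simulated data. As no label says that samples are separate animals, its p-values reflect sample spread alone. WT 52 and WT 57 differed in sex-linked RNA, and so were not repeats of 1 animal. The spread between KO 64 and KO 84 may be technical. The Shh-CreER and HFSC tables hold 1 library per genotype and were not tested. The members, the gene lists, the motifs and the tests were chosen with earlier results of these data known. The genes named were the 12 with the largest mean of both TAC differences, up to 6 members of each list, those nearest the TAC limits, those at least 2-fold higher in HFSCs and up to 3 other genes of a list by K15-CrePGR difference. The rest, with the neighbours of the HFSC limit, were added to account for all. Alternatives covered pseudocount, filter, scaling, trend and leaving out each library. Python 3.11.15, numpy 2.4.6, pandas 2.3.3 and matplotlib 3.10.9 were used.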

Additional observations from a re-analysis of the deposited data

Results flagged for a closer look

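For 9 of the 49 genes, each averaging 1 FPKM or more in HFSCs, the cKO HFSC library was above its Het control while every deleted TAC library was below every control of its table. The log2(FPKM + 1) differences in HFSCs, cKO minus Het, were 1.77 for Car2, 1.57 for Pm20d1, 1.26 for Slc27a6, 1.22 for Dach1, 1.01 for Vsig8, 0.49 for Kcnh1, 0.34 for Them4, 0.27 for Tgm3 and 0.14 for Snord58b. The difference between HFSCs and TACs was not tested, and the genes had been chosen to be lower in TACs. Of the 49 genes, whatever their level, 28 were above Het in cKO HFSCs, and 57% of all 10634 genes were.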

How the results depend on the processing

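The alternatives were pseudocounts 0.1 and 5, filters of 5 FPKM or none, median scaling, quantile normalization, and each K15-CrePGR library left out. All 49 genes stayed lower in both TAC contrasts under each. This sign is a weak check, because the genes were chosen as lower in both contrasts by a set limit. A change of filter does not alter a gene's difference at all. Membership was free to change, and 24 of the 49 were kept without KO 84. Members numbered 28 with pseudocount 5 (25 of the 49 kept), 61 with pseudocount 0.1 (47 kept), 40 with median scaling (40 kept), 59 with quantile normalization (45 kept) and between 29 (without KO 84) and 68 (without KO 64) when a library was left out. The count of Shh-CreER genes that were also lower in K15-CrePGR TACs is this same number. With pseudocount 5, 70 of the Shh-CreER genes had both KO below both WT samples. That count comes from a smaller set, as 148 genes instead of 266 were then lower in Shh-CreER TACs, before the HFSC condition. It therefore does not show a smaller share.

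The limma counts in K15-CrePGR TACs, lower then higher, were 10 and 16 with pseudocount 0.1, 3 and 3 with pseudocount 5, 3 and 2 with no filter, and 4 higher without the trend. With a library left out they ranged between 0 and 6 lower and between 0 and 17 higher. The 1 Shh-CreER gene called became 0 with pseudocount 5, no filter, median scaling, no trend and each library left out. Genes lower and higher by 1 in Shh-CreER TACs were 148 and 98 with pseudocount 5 and 177 and 114 with a filter of 5, and 374 were higher with pseudocount 0.1. In HFSCs they were 154 and 247 with pseudocount 5, while 141 (filter of 5) and 495 (no filter) were lower. The lone sample of a genotype is then assumed to vary like the others. No paired analysis was possible because the groups compared share no replicate number. With 2 samples a group, and 1 in the other tables, small differences could not be detected.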
